A study of Homo sapiens with 34 samples.

Results

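Cells that respond to Wnt also transcribe genes whose products dampen the signal, and 9 such negative feedback genes are described here: AXIN2, NKD1, RNF43, ZNRF3, APCDD1, NOTUM, DKK1, DKK4 and WIF1. They are 9 of 19970 genes annotated by RefSeq as protein-coding, and they were listed by their known function, with earlier results of these data known, the Pol II coverage of AXIN2 and RNF43 among them. Every H3K27ac and RNA polymerase II (Pol II) region within each gene, or within 50 kb of it, was taken from 4 peak lists of DLD1, a colorectal adenocarcinoma cell line in which loss of APC function keeps the Wnt pathway active. All cells carried a Tet-inducible transgene for a dominant negative TCF7L2 and grew with zeocin and blasticidin. Induced cells were given 1 µg/mL doxycycline for 24 h, and uninduced cells were not treated. Each antibody and condition had 2 samples, but the labels tie 1 peak list to both, so the comparison of induced with uninduced cells has no replicate check and no p-value. No cells without the transgene were given doxycycline, so an effect of the drug cannot be told apart from one of the transgene, and 1 line was used for chromatin.

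In the Wnt pathway, secreted ligands stop the destruction complex from degrading β-catenin, which then enters the nucleus and activates genes together with the TCF and LEF factors. TCF7L2 is the main factor of this family in the intestine, and its dominant negative form occupies the sites without binding β-catenin. The feedback genes act at every level: AXIN2 is a scaffold of the destruction complex, NKD1 antagonises Dishevelled, RNF43 and ZNRF3 are ubiquitin ligases that remove Frizzled receptors from the cell surface, APCDD1 is a membrane glycoprotein that inhibits the pathway, NOTUM is a secreted enzyme that strips the lipid from Wnt ligands, DKK1 and DKK4 are secreted proteins that block the LRP co-receptors, and WIF1 is a secreted protein that binds Wnt. H3K27ac marks active promoters and enhancers, and Pol II marks sites of transcription.

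Of the 9 genes, DKK1, WIF1, RNF43 and APCDD1 had promoter windows among the RefSeq sequences used (GRCh38.p14, 250 bases before the start and 50 after). The windows of APCDD1 and of the upstream start of RNF43 are shown because both carried H3K27ac and Pol II, and those of DKK1 and WIF1 because no region of any list overlapped them. Each was searched on both strands for the TCF motif letters CTTTGAA or CTTTGAT or CTTTGTA or CTTTGTT, whose matches are in capitals.
APCDD1, chr18:10454385-10454684, plus strand: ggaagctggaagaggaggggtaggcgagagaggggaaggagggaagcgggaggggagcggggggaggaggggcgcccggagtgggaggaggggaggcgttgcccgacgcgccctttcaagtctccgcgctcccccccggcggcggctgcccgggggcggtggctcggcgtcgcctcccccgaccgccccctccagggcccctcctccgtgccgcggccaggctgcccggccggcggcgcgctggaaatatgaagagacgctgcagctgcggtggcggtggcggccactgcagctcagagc
RNF43, chr17:58417485-58417784, minus strand: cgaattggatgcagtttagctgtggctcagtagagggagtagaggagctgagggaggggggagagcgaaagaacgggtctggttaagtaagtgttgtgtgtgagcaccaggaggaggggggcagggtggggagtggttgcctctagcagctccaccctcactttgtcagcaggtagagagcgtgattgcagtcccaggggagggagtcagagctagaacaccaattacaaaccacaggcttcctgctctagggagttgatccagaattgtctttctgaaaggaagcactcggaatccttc
DKK1, chr10:52314031-52314330, plus strand: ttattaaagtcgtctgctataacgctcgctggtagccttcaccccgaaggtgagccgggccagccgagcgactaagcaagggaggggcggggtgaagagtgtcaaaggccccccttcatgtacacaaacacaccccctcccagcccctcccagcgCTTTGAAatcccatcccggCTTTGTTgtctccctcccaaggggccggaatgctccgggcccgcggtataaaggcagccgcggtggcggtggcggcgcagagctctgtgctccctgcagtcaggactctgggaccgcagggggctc
WIF1, chr12:65121256-65121555, minus strand: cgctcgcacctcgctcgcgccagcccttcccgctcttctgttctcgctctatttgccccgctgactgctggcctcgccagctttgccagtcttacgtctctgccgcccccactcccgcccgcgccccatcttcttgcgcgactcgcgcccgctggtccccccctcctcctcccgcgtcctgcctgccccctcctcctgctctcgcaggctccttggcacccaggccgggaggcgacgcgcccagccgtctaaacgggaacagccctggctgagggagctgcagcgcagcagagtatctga

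The DKK1 window held 2 matches, CTTTGAA beginning 95 bases and CTTTGTT 76 bases before the start, and the other windows, that of the second RNF43 start included, held none. Among all 35116 windows, 13.8% held at least 1 match and 1.58% at least 2. The APCDD1 window was 76.0% G and C with 33 CG pairs and the RNF43 window 54.3% with 5, while the unmarked windows had 63.7% with 20 for DKK1 and 69.7% with 29 for WIF1. At the second RNF43 start, 58402721, an H3K27ac region of each list overlapped the window, and Pol II did so in the uninduced list only, with 3.09. A Pol II element within 1 kb of this start, beginning at 58401903, was in both lists, and its fold was level between them (log2 difference 0.01). The letters show what the windows contain and say nothing of binding.

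The 9 genes and their 50 kb margins held 132 H3K27ac regions with 521 summits in the induced list and 151 regions with 575 summits in the uninduced list. For Pol II they held 120 regions with 259 summits in the induced list and 131 regions with 333 summits in the uninduced list. Regions of a mark that overlapped by at least 1 bp across both lists were joined into elements, which gave 144 H3K27ac elements of 83451 in the genome and 130 Pol II elements of 59924. Each element was described by the highest fold enrichment of its summits in each list, which is the authors' own ratio of signal over background, and by the −log10 q beside it. Differences are log2(induced fold / uninduced fold) minus the median of all paired elements of the mark, which was 0.06 for H3K27ac and −0.11 for Pol II. The labels give 40 to 55M reads per sample, and a fold depends on depth and on the input sample, so it was read against all other elements of the same lists. At the edge of the windows, the DKK1 element 46.8 kb beyond the gene had an H3K27ac fold of 23.7 in the induced and 19.4 in the uninduced list and was kept, while one 50.4 kb beyond it, in the induced list only with 2.61, was not. The lists themselves differed in strength: the median −log10 q was 17.8 in the induced and 21.3 in the uninduced H3K27ac list, and 8.13 in the induced and 9.0 in the uninduced Pol II list. The part of these gaps in the differences below was not tested. H3K27ac with a −log10 q of at least 10 lay at an end of 10 of 10 colorectal epithelial marker genes in both lists, and of 3 of 7 stromal or endothelial ones. Of the immune markers, CD3E, CD14, CD68 and SPI1 had such a region in both lists. PTPRC, COL3A1, COL1A2, VWF and CDH5 had no H3K27ac region there.

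H3K27ac around the feedback genes was lower in induced than in uninduced cells at many elements and higher at few. The elements at their starts were mostly level by their highest summit, which in a long element can lie far from the start. Of the 144 H3K27ac elements 4 were in the induced list only (2.78%) and 41 in the uninduced list only (28.5%), where all elements of the genome gave 11.8% and 13.6%. Most of these were weak: the 41 had folds of 2.21 to 5.29 and a median −log10 q of 3.28. With a −log10 q of at least 10 asked for, 0 were in the induced list only, against 0.524% of all elements, and 3 in the uninduced list only (2.08%), against 1.33%. Among the 99 elements in both lists, 5 were lower in induced cells by over 2-fold (5.05%, against 3.09% of all paired elements) and 0 were higher by over 2-fold, against 1.41%. At a limit of 1.5-fold, 27 were lower (27.3%, against 11.5%) and 2 were higher (2.02%, against 9.07%). The 27 lay at 7 of the 9 genes, and 71.7% of the 99 differences were below 0. Without ZNRF3, which has the longest window, 18 of 70 were lower (25.7%) and 2 were higher (2.86%). Among the 67 paired elements with a −log10 q of at least 20 in either list, a limit chosen after seeing the data, 23 were lower by over 1.5-fold (34.3%, against 12.6%) and 2 higher (2.99%, against 9.62%). With the mean fold of the summits of an element in place of the highest, also added after seeing the data, 17 of the 99 were lower by over 1.5-fold (17.2%, against 10.3%) and 1 was higher (1.01%, against 8.06%).

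**Figure D1:**
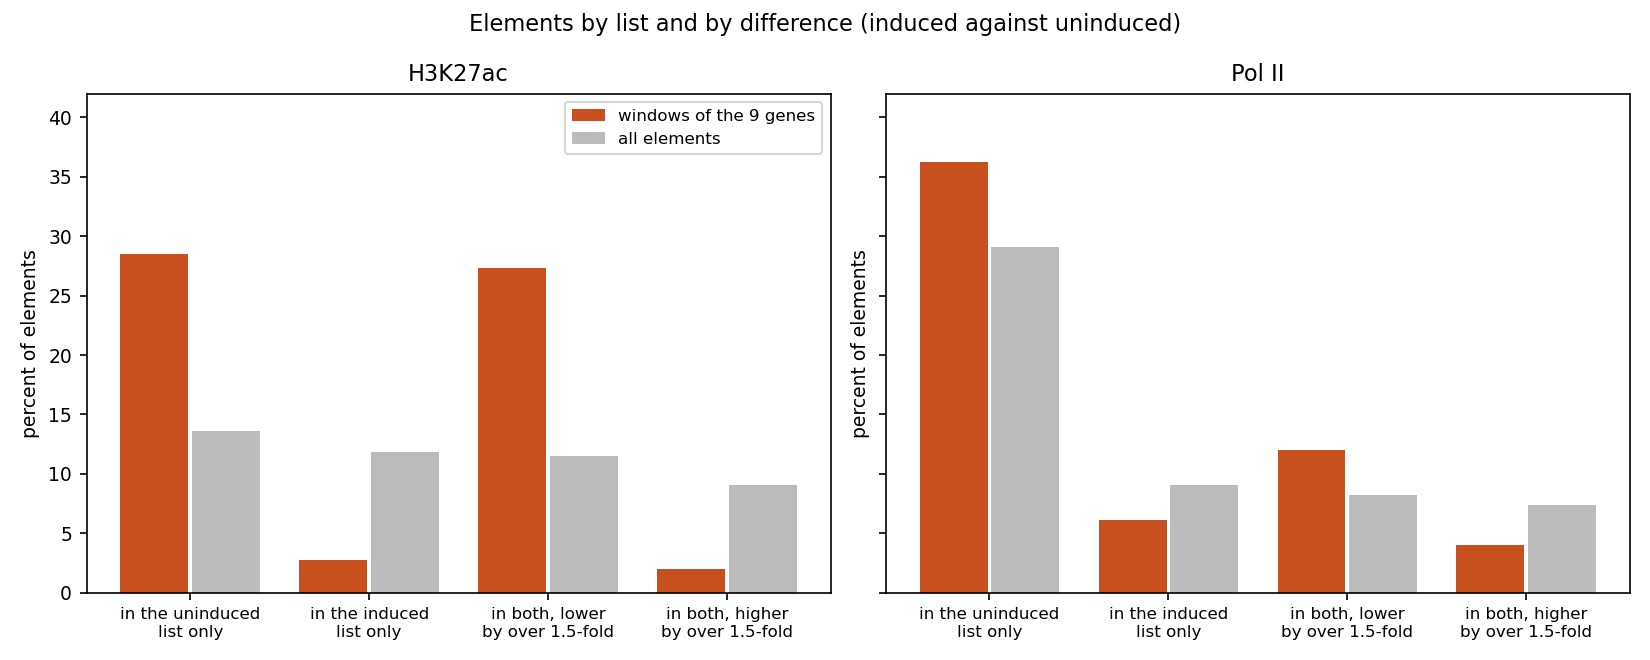
Bars give the percent of elements, for H3K27ac on the left and Pol II on the right, that were in 1 list only or were in both with a fold lower or higher in induced cells by over 1.5-fold. Orange is the windows of the 9 genes and grey all elements of the mark. For H3K27ac the lower classes stand at 28.5% and 27.3%, against 13.6% and 11.5% of all elements.

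For Pol II the shares at the feedback genes lay nearer to those of all elements. Of the 130 elements 8 were in the induced list only (6.15%, against 9.1% of all Pol II elements) and 47 in the uninduced list only (36.2%, against 29.1%). With a −log10 q of at least 10, 0 were in the induced list only, against 0.0417%, and 3 in the uninduced list only (2.31%, against 1.33%). Among the 75 paired elements 1 was lower by over 2-fold (1.33%, against 1.43%) and 0 were higher, against 0.774%. At 1.5-fold 9 were lower (12%, against 8.25%) and 3 higher (4.0%, against 7.4%). Of the 34 stronger ones 5 were lower (14.7%, against 11.3%) and 1 higher (2.94%, against 7.41%). With the mean fold of the summits 6 of the 75 were lower by over 1.5-fold (8.0%, against 8.93%) and 5 higher (6.67%, against 7.79%). Differences below 0 made up 49.3% of the 75.

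By position, the 27 lower H3K27ac elements of the 9 genes comprised 1 at a gene start, 13 inside the genes and 13 outside. At the gene starts, 1 of the 9 paired elements was lower by over 1.5-fold (NOTUM) and 1 higher (DKK4), both within 1.5-fold by the mean fold of their summits. In both, the summit beside the start went the other way (0.98 for NOTUM, −0.46 for DKK4). The differences of the 9 start elements ran from −0.61 to 0.64 around a median of 0.08. ZNRF3 had more than 1 of these start elements and DKK1 none, and that of DKK4 also lies at an end of VDAC3. Inside the genes 13 of 36 were lower and 0 higher, with a median of −0.33. Outside the genes 13 of 54 were lower and 1 higher, with a median of −0.30. Of the outside elements 29 touched no other protein-coding gene, and 8 of these were lower and 0 higher. The other 25 lay at or in a neighbouring gene, with 5 lower and 1 higher. All paired H3K27ac elements of the genome showed a like order: 5.21% of those within 1 kb of a gene end were lower by over 1.5-fold, 13.3% of those inside a gene and 12.9% of those between genes. By the same places, the feedback gene windows gave 5 of 25 (20%), 14 of 46 (30.4%) and 8 of 28 (28.6%). For Pol II, 0 of the 8 paired start elements passed 1.5-fold in either direction. By place, 2 of 26 Pol II elements at a gene end were lower (7.69%, against 6.71%), 5 of 36 inside a gene (13.9%, against 8.62%) and 2 of 13 between genes (15.4%, against 9.79%). The gene table has no exons, so inside a gene means between its ends.

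**Figure D2:**
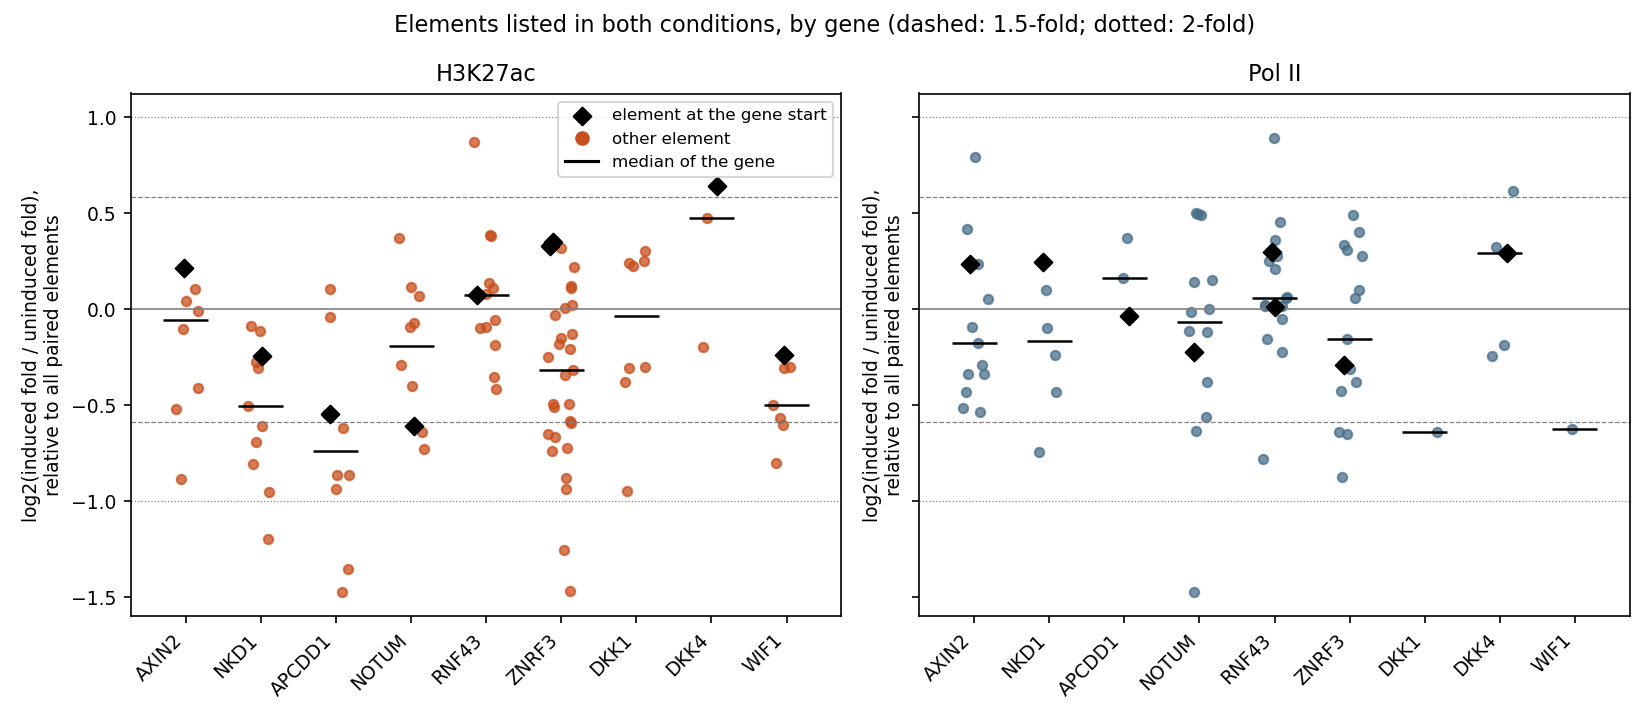
Each point is an element in both lists, for H3K27ac on the left and Pol II on the right, placed by gene and by the log2 ratio of its induced over its uninduced fold relative to all paired elements. Diamonds are elements at the gene start, bars are gene medians, and dashed and dotted lines are 1.5-fold and 2-fold. For H3K27ac the lowest medians are those of APCDD1 (−0.74), NKD1 and WIF1 (−0.50 each), and all 11 points of NKD1 lie below 0.

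AXIN2, the scaffold gene that serves as the usual readout of the pathway, lies on the minus strand at chr17:65528563-65561648 and has no other protein-coding gene within 50 kb. It sat inside an H3K27ac element of 44673 bp, 65526099 to 65570771, whose highest fold was 35.5 in the induced list and 29.3 in the uninduced list (difference 0.22). A further broad element upstream, 65571058 to 65597070, had 38.4 in the induced list and 34.2 in the uninduced list. Both broad elements were thus at least as strong after induction by their highest summit. Beyond the 3′ end some elements were lower and others level. The element at 65521751 to 65525993, 37.5 kb downstream of the start, had a fold of 13.8 in the induced list, in 2 regions, and 24.4 in the uninduced list (−0.88). The next one out, 65513387 to 65517720, had 22.1 in the induced and 28.2 in the uninduced list (−0.41). Farther out, 65493631 to 65497090 was level, with 19.1 in the induced and 18.4 in the uninduced list (−0.01), as was the weak element at 65485717, with 4.94 in the induced and 4.60 in the uninduced list (0.04). With regions up to 1 kb apart joined, the lower element next to the 3′ end merged with the broad one and differed by 0.10.

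Because a broad element is summarised by its strongest summit, summits were also paired across the lists, each with its mutual nearest within 250 bp, a step added after seeing the data. Of 86 such H3K27ac pairs at AXIN2 2 were lower by over 2-fold and 0 higher, and the median difference was −0.01. At 1.5-fold 6 of the AXIN2 pairs were lower and 8 higher. The pairs past 2-fold stood 45.2 kb downstream of the start (fold 14.6 induced, 28.2 uninduced) and 33.2 kb downstream. The latter, at the 3′ end of the gene, had 5.78 in the induced and 13.2 in the uninduced list. Over all 9 genes 25 of 434 H3K27ac pairs were lower by over 2-fold (5.76%, against 3.66% of all pairs in the genome) and 0 higher, against 2.06%. At 1.5-fold 75 were lower (17.3%, against 13.1%) and 32 higher (7.37%, against 11.3%). For Pol II 5 of 190 pairs were lower by over 2-fold (2.63%, against 1.62%) and 0 higher, against 1.14%. At 1.5-fold 25 Pol II pairs were lower (13.2%, against 9.29%) and 10 higher (5.26%, against 8.91%).

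Pol II at the AXIN2 start had a fold of 26.7 in the induced and 24.6 in the uninduced list (0.23), but the sign was not stable: it was −0.33 with regions up to 1 kb apart joined and −0.16 with the mean fold of the summits. Its strongest Pol II summit lay past the 3′ end, 34.4 kb from the start, with 27.3 in the induced and 37.4 in the uninduced list (−0.34). Upstream, an element at 65567516 to 65568923 was higher in induced cells, with 7.53 against 4.71 in uninduced cells (0.79, and 0.37 by the mean fold). Over the gene, Pol II regions covered 68.7% of the length in the induced list and 92.0% in the uninduced list. Less of the body of AXIN2 thus lay within Pol II regions in the induced list.

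NKD1, which encodes an inhibitor of Dishevelled, lies on the plus strand at chr16:50548396-50649249. Of its 18 H3K27ac elements 11 were in both lists, and all 11 differences were below 0, with a median of −0.50. By its highest summit the start was close to level, with an H3K27ac fold of 33.1 in the induced and 37.5 in the uninduced list (−0.24). The summit pair 0.4 kb upstream of the start had 15.3 in the induced and 22.9 in the uninduced list (−0.64). By the mean fold of its summits the start element differed by −0.36. Pol II at the start had a fold of 48.9 in the induced and 44.6 in the uninduced list. The element with the largest difference lay 28.2 kb upstream, at 50518877 to 50522976. In the induced list its fold was 11.01 (−log10 q 47.4), against 24.2 (−log10 q 148) in the uninduced list (−1.20). A Pol II element inside it, 50520329 to 50520972, was in the uninduced list only (fold 5.57, −log10 q 13.7). This was the only Pol II element of NKD1 in 1 list only that reached a −log10 q of 10.

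Inside NKD1, 1 uninduced H3K27ac region of 50609187 to 50620663 met 5 shorter induced regions, and its highest fold was 17.1 in the induced and 31.7 in the uninduced list (−0.95). Within it the summit 62.0 kb from the start had 7.37 in the induced and 22.7 in the uninduced list, and the summit 69.6 kb from the start had 13.9 in the induced and 31.7 in the uninduced list. The neighbouring element at 50600147 to 50605350 was nearer to level, with 22.8 in the induced and 26.4 in the uninduced list (−0.28), although its summit 52.4 kb from the start had 3.95 in the induced and 10.9 in the uninduced list. In all 8 of the 33 H3K27ac summit pairs of NKD1 were lower by over 2-fold, the most of the 9 genes. Beyond the 3′ end, an end of SNX20 was level (11.78 induced, 11.998 uninduced). An element inside NOD2 had 9.46 in the induced and 15.9 in the uninduced list (−0.81, and −0.35 by the mean fold of the summits). A small H3K27ac element before the start, 50544435 to 50546841, was in the uninduced list only (fold 4.42, −log10 q 10.03). Pol II over the 3′ part of the gene, 50637620 to 50645085, had 3.36 in the induced and 6.08 in the uninduced list (−0.74, and −0.20 by the mean fold). Pol II regions covered 2.81% of NKD1 in the induced and 13.5% in the uninduced list.

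APCDD1, the membrane inhibitor, lies on the plus strand at chr18:10454635-10489949 and had the lowest median H3K27ac difference, −0.74 over 10 paired elements, of which 6 were lower by over 1.5-fold and 2 by over 2-fold. Its start had an H3K27ac fold of 17.3 in the induced and 24.2 in the uninduced list (−0.55), and a Pol II fold of 22.6 in the induced and 25.1 in the uninduced list (−0.03). This is the promoter printed above. The element near the 3′ end of the gene, 10486024 to 10489443, had a fold of 8.22 (−log10 q 26.6) in the induced list and 21.8 (−log10 q 128) in the uninduced list (−1.47). Just beyond the end, a Pol II element at 10490038 to 10491349 was in the uninduced list only (fold 4.79, −log10 q 10.6). The element 10.1 kb into the gene, 10464399 to 10465536, had 5.25 in the induced and 12.8 in the uninduced list (−1.35).

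The adjoining APCDD1 element at 10462930 to 10464221 had 6.12 in the induced and 10.7 in the uninduced list (−0.86). Outside the gene, the elements 10.2 kb upstream (12.1 induced, 17.8 uninduced) and 65.3 kb downstream of the start (7.84 induced, 13.6 uninduced) were also lower by over 1.5-fold. By the mean fold of the summits both were within it (−0.33 and −0.16), and the upstream one also without centring (−0.56). The folds 7.84 and 13.6 are of different summits. The element at an end of NAPG in the same window was not lower, with an H3K27ac fold of 36.3 in the induced and 32.3 in the uninduced list. Of the 9 Pol II elements of APCDD1 0 were in the induced list only, against 9.1% of all Pol II elements. In the uninduced list only were 6, against 29.1% of all, with folds of 2.64 to 4.79 and a median −log10 q of 4.64. Pol II covered 3.53% of the gene in the induced and 9.24% in the uninduced list.

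NOTUM, the gene of the secreted Wnt deacylase, is short (chr17:81952507-81961187, minus strand) and its window holds 7 other protein-coding genes. Its start was the only 1 of the 9 start elements with H3K27ac lower by over 1.5-fold, at 9.25 in the induced and 13.5 in the uninduced list (−0.61). These values are of a summit 1.01 kb into the gene. The summit beside the start, at 81961222 in the uninduced list, went the other way, with 7.03 in the induced and 3.44 in the uninduced list (0.98). The start element was within 1.5-fold by the mean fold of its summits (−0.10) and without centring (−0.55). Pol II there had 4.81 in the induced and 6.08 in the uninduced list (−0.22), which was 0.17 by the mean fold. The element in its 3′ part, 81953991 to 81956362, was level for H3K27ac, with 13.7 in the induced and 12.5 in the uninduced list. The largest Pol II difference of the 9 genes stood 6.76 kb upstream, at 81967691 to 81968446, with no other gene within 1 kb. In the induced list its fold was 4.16 (−log10 q 9.89), against 12.5 (−log10 q 59.3) in the uninduced list (−1.48). H3K27ac over the same place, 81966406 to 81969689, had 9.69 in the induced and 14.5 in the uninduced list (−0.64). These H3K27ac folds are of different summits. Paired by place, the summit inside the Pol II element, at 81967803 in the uninduced list, had 7.29 induced and 14.5 uninduced (−1.04). The summit at 81968591 in the uninduced list had 9.69 induced and 12.1 uninduced (−0.37). That at 81969218 had 2.43 induced and 4.94 uninduced (−1.08).

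The stronger elements of the NOTUM window belong to its neighbours and went both ways. The element at an end of ASPSCR1 had an H3K27ac fold of 33.8 in the induced and 25.1 in the uninduced list, and that at PYCR1 36.9 in the induced and 37.2 in the uninduced list. The element at the ends of PCYT2 and SIRT7 had 20.9 in the induced and 33.2 in the uninduced list (−0.73). Pol II inside MAFG had 14.6 in the induced and 24.6 in the uninduced list (−0.64, and −0.01 with regions up to 1 kb apart joined). Pol II regions covered 3.63% of NOTUM in the induced and 14.9% in the uninduced list.

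**Figure D3:**
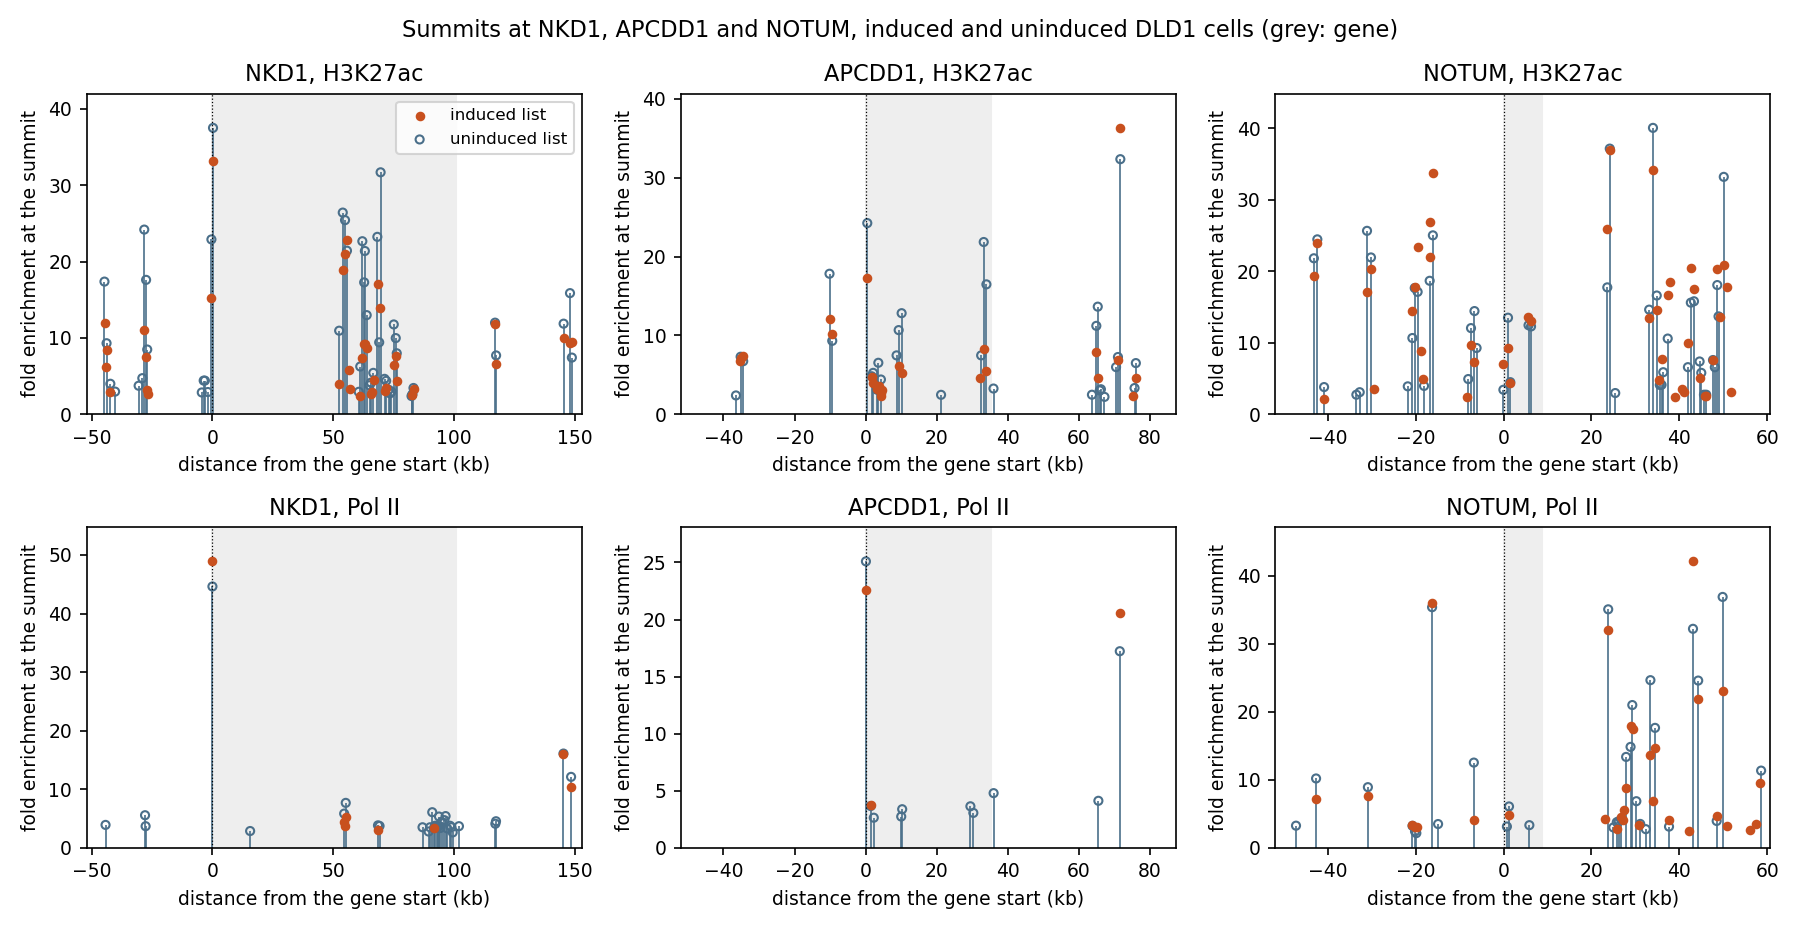
Each mark is a summit, placed by its distance from the gene start in kb along the direction of transcription and by the authors' fold enrichment, with H3K27ac in the upper and Pol II in the lower row. Filled orange points are the induced list, open blue circles with stems the uninduced list, and grey is the gene. The elements 28.2 kb upstream of NKD1, 33.2 kb into APCDD1 and, for Pol II, 6.76 kb upstream of NOTUM are lower in the induced list (11.01, 8.22 and 4.16) than in the uninduced list (24.2, 21.8 and 12.5).

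RNF43 and ZNRF3 encode the paired ubiquitin ligases of the Wnt receptors, and their windows differed. RNF43 (chr17:58352500-58417534, minus strand) was covered by broad H3K27ac over most of its length. Its start element, 58388045 to 58420412, was 1 region in the induced list with a fold of 32.5 and 3 regions in the uninduced list with 29.5 (0.08). These folds are of summits 26.4 kb and 24.2 kb into the gene. The element over its middle had 30.6 in the induced and 27.2 in the uninduced list (0.11), and the one over its 3′ end had 32.2 in the induced and 29.2 in the uninduced list (0.08). None of its 13 paired H3K27ac elements was lower by over 1.5-fold, and the median was 0.08. Of its 98 summit pairs 2 were lower by over 2-fold and 0 higher, while at 1.5-fold 5 were lower and 13 higher. The pairs past 2-fold lay 24.2 kb (14.6 induced, 29.5 uninduced) and 51.5 kb (14.98 induced, 29.2 uninduced) downstream of the start, and each was the strongest uninduced summit of its element. The summits nearest to the promoter printed above were 0.443 kb into the gene, with 29.5 in the induced and 15.1 in the uninduced list (0.91), and 0.569 kb upstream, with 19.97 in the induced and 16.96 in the uninduced list (0.18).

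Pol II at the RNF43 start had 23.3 in the induced and 20.5 in the uninduced list (0.30, and −0.11 by the mean fold of the summits). In the gene, the Pol II element at 58365410 to 58366771, which spans the second of those summits, had 3.08 in the induced and 5.74 in the uninduced list (−0.78, and −0.22 with regions up to 1 kb apart joined). Pol II regions covered 35.6% of RNF43 in the induced and 49.8% in the uninduced list. The outermost H3K27ac element of the window, 33.2 kb beyond RNF43 and inside TSPOAP1, was the highest of the 99 relative to uninduced cells. It had 17.9 in the induced and 9.38 in the uninduced list (0.87, and 0.49 by the mean fold of the summits).

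ZNRF3 (chr22:28883572-29057488, plus strand) is the longest of the 9 genes and held 44 H3K27ac elements. Its start was higher by its fold in the induced list, in 2 adjoining elements: 37.0 in the induced and 28.2 in the uninduced list (0.33), and 29.5 in the induced and 22.2 in the uninduced list (0.35). By the mean fold of the summits the first of these was −0.14. Pol II there had 21.0 in the induced and 27.8 in the uninduced list (−0.29). Strong intragenic elements were also level or higher, such as 28900102 to 28933622 (31.9 induced, 28.3 uninduced), 29001379 to 29007682 (27.6 induced, 21.2 uninduced) and 29027136 to 29035435 (32.99 induced, 35.8 uninduced). Of the elements between and beside them some were lower and some level. Among the level ones was 28896732 to 28899241, with 3.72 in the induced and 3.27 in the uninduced list (0.12). The element at 29036264 to 29042059 had 15.4 in the induced and 23.2 in the uninduced list (−0.65), and that at 28887388 to 28895574 had 8.40 in the induced and 12.1 in the uninduced list (−0.59). With regions up to 1 kb apart joined they differed by −0.18 and 0.32. In all 9 of the 29 paired ZNRF3 elements were lower by over 1.5-fold and 0 higher, with a median of −0.32.

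Of the 9 lower elements at ZNRF3 2 passed 2-fold. Both rest on weak induced summits, with a −log10 q of 2.11 and 2.54, and were no longer in both lists when a −log10 q of at least 5 was asked for. The element at 29035458 to 29036176 had 2.00 in the induced and 4.57 in the uninduced list (−1.25), which was −0.18 with regions up to 1 kb apart joined. The element at 29064978 to 29067553, past the 3′ end and inside C22orf31, had 2.86 in the induced and 7.59 in the uninduced list (−1.47), and a Pol II element inside it, 29066147 to 29066682, was in the uninduced list only (fold 5.57, −log10 q 13.7). Further out, at the end shared by C22orf31 and KREMEN1, H3K27ac had 17.7 in the induced and 32.5 in the uninduced list (−0.94) and Pol II 10.8 in the induced and 18.4 in the uninduced list (−0.65, and 0.25 with regions up to 1 kb apart joined). KREMEN1 is itself a receptor for the DKK proteins. Inside ZNRF3, Pol II at 28978036 to 28978883 had 2.93 in the induced and 5.82 in the uninduced list (−0.87), and coverage of the gene was 5.33% in the induced and 11.3% in the uninduced list.

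**Figure D4:**
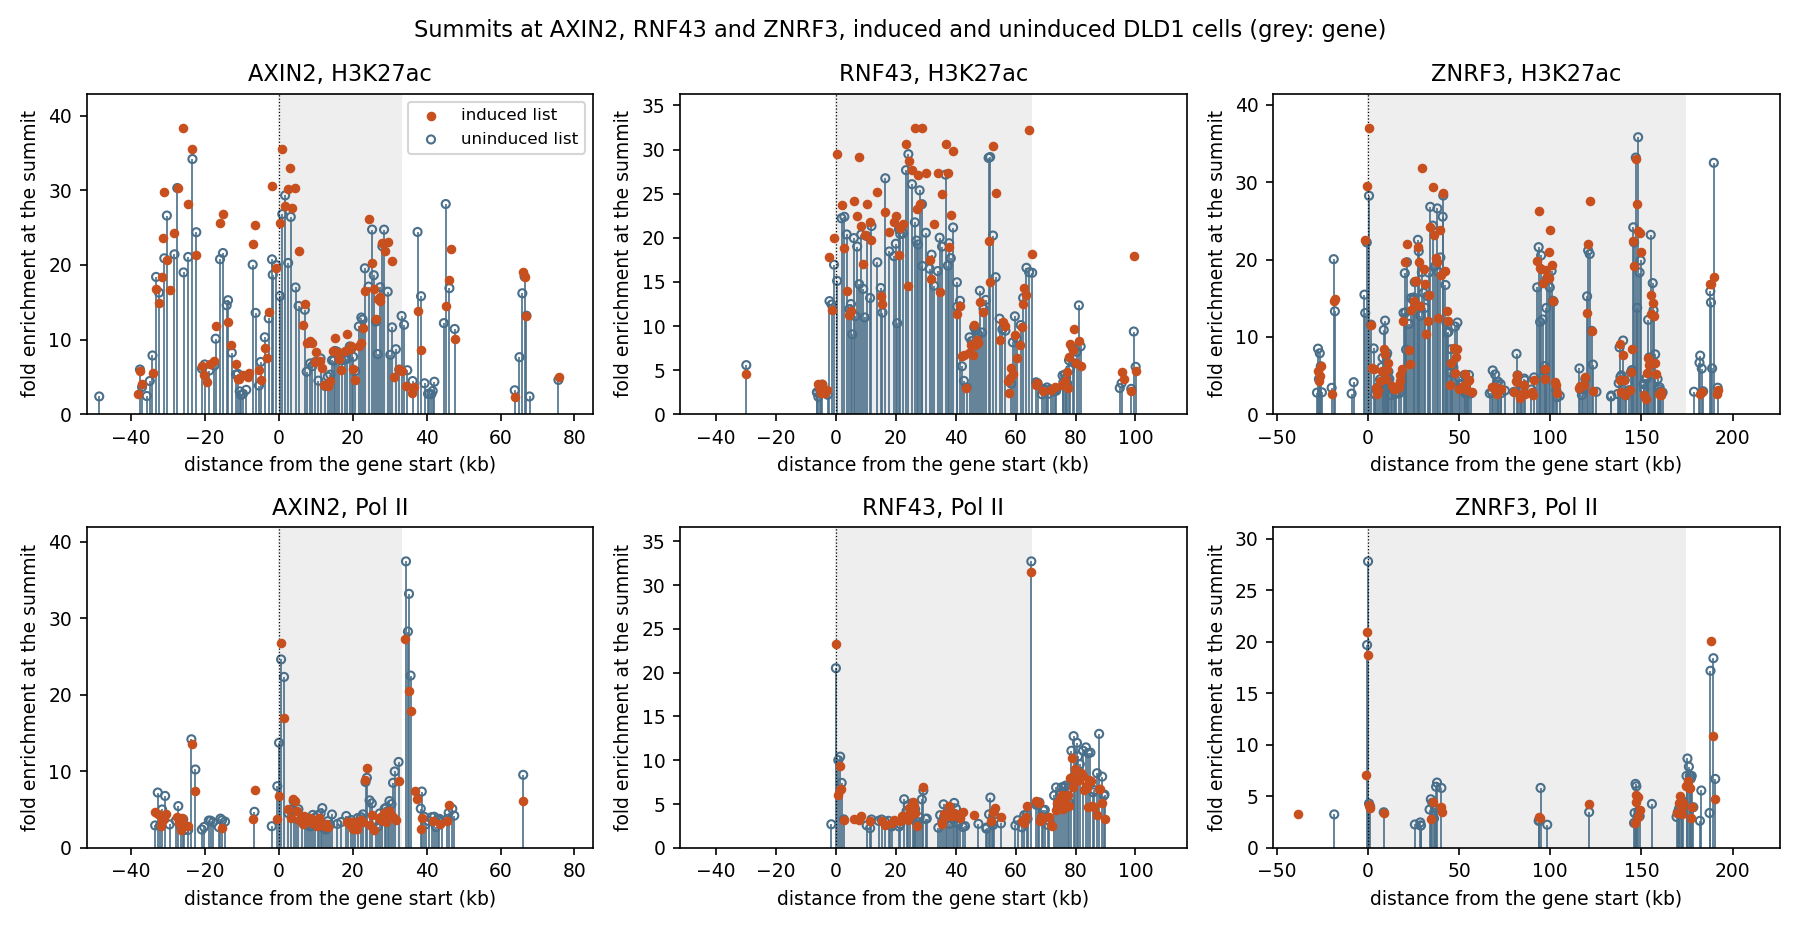
Summits at AXIN2, RNF43 and ZNRF3 are placed by their distance from the gene start in kb and by the authors' fold enrichment, with H3K27ac in the upper and Pol II in the lower row. Filled orange points are the induced list, open blue circles with stems the uninduced list, and grey is the gene. Broad H3K27ac runs across AXIN2 and RNF43 in both lists, with start elements of 35.5 and 32.5 in the induced list and 29.3 and 29.5 in the uninduced list.

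The genes of the secreted DKK1 and WIF1 carried little at their own starts, and the marks at the start of DKK4 cannot be told apart from those of a neighbouring gene. No H3K27ac element and no Pol II element lay within 1 kb of the DKK1 start (chr10:52314281-52317657, plus strand), and no Pol II region of either list overlapped the gene. H3K27ac just past its 3′ end, 52317940 to 52319032, had a fold of 18.2 in the induced and 14.6 in the uninduced list (0.25). Of its 8 paired elements 1 was lower by over 1.5-fold: 52352065 to 52357417, 39.7 kb downstream of the start, had 10.3 in the induced list, in 3 regions, and 19.0 in the uninduced list, in 1 (−0.95). By the mean fold of the summits this element was within 1.5-fold (−0.48). The element 51.9 kb downstream had 23.7 in the induced and 19.4 in the uninduced list (0.23). That element held the only Pol II of the window, 52365358 to 52366493, with 8.46 in the induced and 14.3 in the uninduced list (−0.64). The H3K27ac folds 23.7 and 19.4 are of different summits. Paired by place, the summit 51.9 kb downstream was higher in induced cells (23.7 induced, 15.2 uninduced, 0.59). Those 51.2 kb (15.7 induced, 19.4 uninduced, −0.36) and 52.5 kb downstream (6.82 induced, 11.3 uninduced, −0.78) were lower.

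WIF1 (chr12:65050626-65121305, minus strand) had a small H3K27ac element that began under 1 kb before its start, with its summit 1.29 kb upstream, at 7.78 in the induced and 8.78 in the uninduced list, and no Pol II there. Its strongest own element lay 8.42 kb into the gene, 65112452 to 65113838, with 20.8 in the induced and 28.2 in the uninduced list (−0.50). All 7 paired H3K27ac differences were below 0, and 2 passed 1.5-fold: an element 42.4 kb upstream (6.55 induced, 10.9 uninduced, −0.80) and the element at an end of LEMD3 (27.1 induced, 39.4 uninduced, −0.61). The LEMD3 element was within 1.5-fold by the mean fold of the summits (−0.45) and without centring (−0.54). Elements at 65129334 to 65129766 (fold 5.29, −log10 q 18.7) and 65162349 to 65163126 (fold 4.29, −log10 q 10.1) were in the uninduced list only. Pol II at LEMD3 had 22.5 in the induced and 37.5 in the uninduced list (−0.62). Pol II regions covered 0% of WIF1 in the induced and 0.550% in the uninduced list.

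For DKK4 (chr8:42374063-42391322, minus strand) the window could not be read as the gene's own. The upper end of its annotated range is 558 bp from VDAC3, a mitochondrial channel gene, and the element there lies at that end of VDAC3. That element had an H3K27ac fold of 34.4 in the induced and 21.1 in the uninduced list (0.64). These values are of a summit at 42392110 in the uninduced list. The summit nearer to the DKK4 start, at 42391513 in the uninduced list, went the other way. It had 13.1 in the induced and 17.3 in the uninduced list (−0.46). The element had a Pol II fold of 37.5 in the induced and 33.1 in the uninduced list (0.29). Pol II at POLB in the same window had 37.7 in the induced and 26.7 in the uninduced list (0.61, and 0.50 without centring). The DKK4 range itself was covered by Pol II over 0.232% in the induced and 0.962% in the uninduced list.

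The marks were set side by side at each H3K27ac element. Of the 27 elements lower in induced cells by over 1.5-fold 16 overlapped a Pol II element (59.3%, against 31.5% of the 7128 such elements of the genome). At 7 of these 16 Pol II was in the uninduced list only (43.8%). Over the genome the share was 40.0% of the 2244 such elements with Pol II. Where the strongest Pol II element was in both lists, its difference was below 0 at 8 and above 0 at 1, against 1036 below and 267 above over the genome. Of the other 72 paired H3K27ac elements 37 overlapped Pol II (51.4%, against 50.3% over the genome). There Pol II was in the uninduced list only at 4 (10.8%, against 11.8% over the genome), below 0 at 18 and above 0 at 15. The lower H3K27ac elements in the windows of the feedback genes thus overlapped Pol II more often than those of the genome. Some of them lay at or in neighbouring genes. At a gene end were 5 of the 27, against 676 of the 7128 of the genome, and the shares with Pol II were not matched for place. Where Pol II was present, its shares in the uninduced list only lay near those of all elements.

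Pol II regions covered less of the gene in the induced list at all 8 feedback genes that could be scored, which are those with a Pol II region in either list, but 77.9% of all scored genes were also lower. Of the 8, 4 were lower by over 10 percentage points relative to the median of all scored genes: AXIN2, RNF43, NOTUM and NKD1. APCDD1 (9.24% uninduced), DKK4 (0.962%) and WIF1 (0.550%) had too little coverage to pass this limit, and the same holds for any sparsely covered gene. Relative to its own uninduced coverage, AXIN2 (68.7% induced, 92.0% uninduced) lost less than NKD1 (2.81% induced, 13.5% uninduced). The values of AXIN2 and RNF43 were known when the genes were listed. Of all 14087 scored genes 6.42% were lower by as much, and 0.419% were higher, against 0 of the 8. The differences were −23.3 points for AXIN2, −14.1 for RNF43, −11.3 for NOTUM and −10.6 for NKD1, and the median of all genes was −0.507. NKD1 and NOTUM lay just past the limit, at −10.1 and −10.8 after centring. With regions at or above a −log10 q of 5, only AXIN2 and RNF43 passed. The induced Pol II list was also the shorter, with 50665 regions against 57247 in the uninduced list. With lists of equal length 4 genes still passed, with RNF43 at −10.8 and NKD1 at −10.4 points before centring. Over the full lists, ZNRF3 and APCDD1 stood at −5.99 and −5.71 points, and DKK4 and WIF1 at −0.730 and −0.550.

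**Figure D5:**
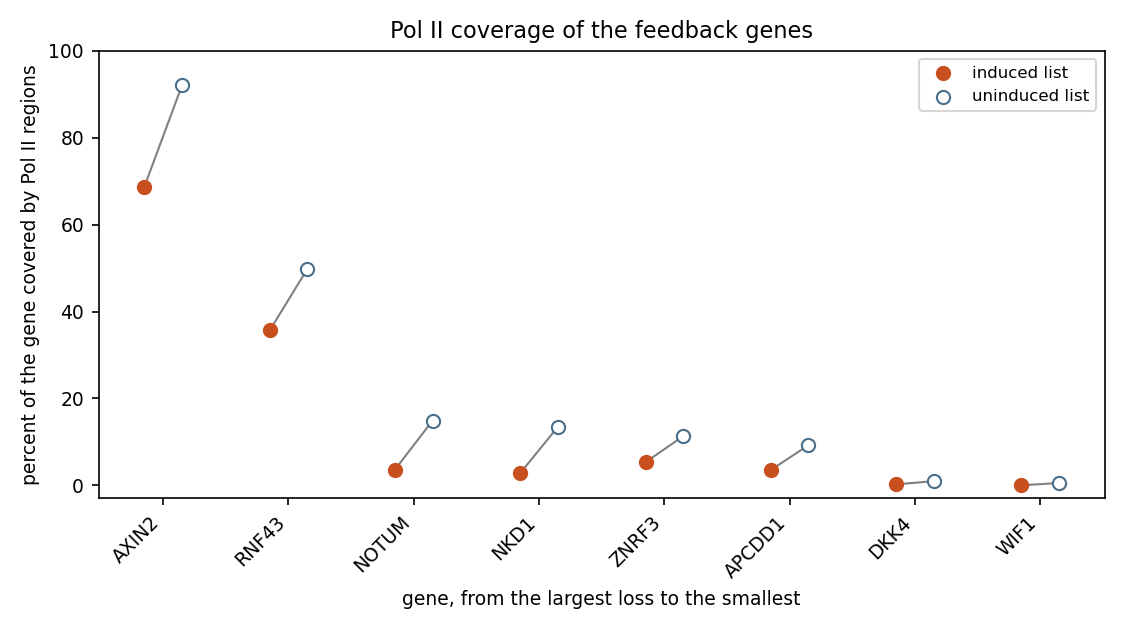
The percent of each gene covered by Pol II regions is given for the induced list (filled) and the uninduced list (open), for the 8 feedback genes with a Pol II region. All 8 are lower in the induced list, with AXIN2 at 68.7% induced and 92.0% uninduced and WIF1 at 0% induced and 0.550% uninduced.

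Other inhibitors of the pathway were scored in the same way. Of 34 listed genes, among them destruction complex members, Dishevelled and Frizzled antagonists and co-repressors, 22 could be scored, of which 0 were lower by over 10 points and 1 higher. That gene was KREMEN2, a DKK receptor, with 94.2% in the induced and 79.1% in the uninduced list. NKD2, the paralogue of NKD1, had 4.55% in the induced and 12.9% in the uninduced list, DKK3 had 8.83% in the induced and 14.1% in the uninduced list, and APC2 had 18.8% in the induced and 23.01% in the uninduced list. In the windows of these 34 genes 32 of 239 paired H3K27ac elements were lower by over 1.5-fold and 11 higher, and 11 of 195 Pol II elements were lower and 14 higher. Of 16 other Wnt targets 15 were matched and scored, with 3 lower by over 10 points: SP5 (45.6% induced, 78.2% uninduced), SOX4 (54.3% induced, 80.8% uninduced) and ETS2 (18.6% induced, 36.3% uninduced), all transcription factor genes. RGMB, which encodes a BMP co-receptor, had 7.94% in the induced and 15.1% in the uninduced list. In the windows of these targets 15 of 139 paired H3K27ac elements were lower by over 1.5-fold and 12 higher, and 8 of 78 Pol II elements were lower and 7 higher. Of all paired H3K27ac elements 11.5% were lower and 9.07% higher, and of all paired Pol II elements 8.25% and 7.4%. KREMEN1, among the 34 inhibitors, has an end in the ZNRF3 window, so the windows of these genes overlap. The difference between these lists and the feedback genes was not tested.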

How the data were processed

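H3K27ac and Pol II ChIP-seq of DLD1 cells was analysed from 4 peak lists. Per the labels, chromatin was sonicated to 250 to 300 bp and sequenced as single 75 bp reads at 40 to 55M per sample. Per the submitters' processing notes, which name tools without role or order, the tools included MACS2 2.1.1.20160309, deepTools 3.5.0, BWA 0.7.17-r1188 and SAMtools 1.10, with builds hg19 and hg38. The positions used are on GRCh38. The sources used here do not state the caller settings, the filters or whether reads of the 2 samples were pooled before calling. Of the authors' deposited values, the fold enrichment of a summit (a ratio over background) and its −log10 q-value were used. The lowest deposited −log10 q is 1.30. Such values carry no read counts, so depth behind a single value is unknown. The lists hold 0 columns of unmatched per-sample values. The 24 RNA-seq samples and the 2 inputs were not analysed here.

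Summits of one region were collapsed to the region, on the autosomes and X, and at most 0.603% of the summits of a list were left out. Regions of both lists that overlapped by at least 1 bp formed an element, compared by its highest fold in each list. The calls were presence in 1 list only, a centred difference past 2-fold (1.5-fold as an alternative) and Pol II coverage over 10 percentage points below the median, over genes of 2 kb or longer. An element was at a gene start or end when within 1 kb of it. With 1 list per group no test was possible. Genes came from the RefSeq table of GRCh38.p14, which has no strand: the strand of RNF43, APCDD1, DKK1 and WIF1 is that of the RefSeq promoter table, and that of the other genes is textbook knowledge. The 9 genes, the marker genes and both gene lists were chosen with earlier results of these data known, the AXIN2 and RNF43 coverage values among them, so they are no independent support. Named were the 9 genes with their start elements, their strongest elements inside and outside for each mark and each called element, and up to 4 genes of each list by coverage difference. Other elements, among them those past 1.5-fold and summits within broad elements, were named after their values were seen. Of the 16 other targets, TDGF1 was not in the table. Scripts used Python 3.11.15, pandas 2.3.3, NumPy 2.4.6 and matplotlib 3.10.9 and were tested on simulated data. The result for 1 marker gene is not reported here.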

Additional observations from a re-analysis of the deposited data

How the results depend on the processing

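The H3K27ac counts were lower in induced cells more often than higher under each alternative tried, but the size of the counts depended on how regions were filtered and joined. All H3K27ac elements of the genome leaned the same way, with 3.09% of the paired ones lower by over 2-fold and 1.41% higher. Shares over all elements were computed only for the limit of 1.5-fold, the summit pairs, the mean fold at 1.5-fold and the stronger elements. Under the other settings the counts cannot be set against the genome. With only regions at or above a −log10 q of 5, elements in the induced and uninduced list only numbered 2 and 18 for H3K27ac (4 and 41 as deposited) and 3 and 25 for Pol II (8 and 47), 3 paired H3K27ac elements were lower by over 2-fold in place of 5 (both of ZNRF3 were lost), and 2 genes in place of 4 were lower in Pol II coverage. With regions up to 1 kb apart taken as shared, they numbered 0 and 10 for H3K27ac and 4 and 21 for Pol II. A window of 20 kb left 2 H3K27ac and 5 Pol II elements in the induced list only, an overlap of 50% of the shorter region gave 7 for H3K27ac, and 1 kb windows at summits gave 24 H3K27ac elements in the uninduced list only and 5 Pol II elements in the induced list only. At a limit of 1.5-fold, 2 H3K27ac elements were higher and 27 lower, and 3 Pol II elements higher and 9 lower. With the mean fold of the summits, 1 Pol II element was higher by over 2-fold. Summit pairs, added after seeing the data, gave 25 lower for H3K27ac and 5 for Pol II, the mean fold of the summits at 1.5-fold, also added, gave 1 higher and 17 lower for H3K27ac and 5 higher and 6 lower for Pol II, and stronger elements at 1.5-fold, also added, gave 2 higher and 23 lower for H3K27ac and 1 higher and 5 lower for Pol II. Lists of equal length and differences without centring left all counts within 1.5 times. Of 285 values of single elements and genes under an alternative, 276 moved by at most 1.5-fold (coverage, 10 points), 5 moved further and 4 past 1.5-fold reversed. Small moves could still end a call: of 196 values of elements past 1.5-fold, 34 came back within it with the sign kept, and of 74 values of start elements within 1.5-fold 7 changed sign, among them WIF1 H3K27ac at 65122041 by the mean fold (0.13). The 4 reversals past 1.5-fold all arose when regions up to 1 kb apart were joined, which merges the element with a stronger neighbour: the AXIN2 H3K27ac element at 65521751 (0.10), the ZNRF3 H3K27ac elements at 28887388 (0.32) and 28998835 (0.31) and the ZNRF3 Pol II element at 29072456 (0.25). Leaving out a replicate could not be done with 1 list per group. No paired analysis was possible because both samples of a group share 1 peak list. The fold of a weak region rests on few reads, and the lists give no depth.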
